A study of Mus musculus with 20 samples.

Results

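The genes described here are interferon-stimulated genes, genes that cells switch on when an interferon binds its receptor. Of the 41 genes listed as interferon-induced, 33 had a probe set that carries their symbol alone, out of 19938 genes with such a probe set in all. Irf1 had 2 such probe sets, of which the one that was brighter on average across the 20 arrays was used. Isg15, Igtp, Irgm2, Ifi47, Gbp2 and Gbp6 lay only on probe sets shared by several symbols, and Ifih1l and Ifi44 on none listed in the annotation used here, so these 8 were not analysed here. The arrays came from a study of the ribosomal gene factor UBF in mouse embryonic fibroblasts (MEFs) with 4 lines: immortalized fibroblasts (iMEFs) that were UBFfl/fl or UBFwt/wt, and primary MEFs of the same genotypes. In the UBFfl/fl lines both Ubf alleles are flanked by Lox sites, and every line, the UBFwt/wt lines included, was ErCre+/+, that is homozygous for a Cre recombinase that 4-hydroxytamoxifen (4-HT) activates. Each line received 50 nM 4-HT for 4 h and gave 1 array at 0, 24, 48, 72 and 96 h post 4-HT (pHT). The primary cells were taken from E14.5 embryos and the iMEFs were made by transfection of SV40 T antigens, and how many embryos or clones stand behind a line is not given in the sources used here. No line was followed without 4-HT, so that 4-HT, Cre activity and time in culture cannot be told apart in any change with time. With 1 array per line and time, the errors below come from differences between lines in their course over time and not from repeated cultures. A rise or fall from time to time that the lines compared have in common does not enter them.

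Interferons alpha and beta bind a receptor made of IFNAR1 and IFNAR2, and the kinases JAK1 and TYK2 then act on STAT2. With IRF9 it is part of a complex that binds the interferon-stimulated response element (ISRE) in promoters, while interferon gamma acts mainly through the gamma-activated site (GAS). The products block translation of viral RNA, degrade it, hold virions at the membrane, or attack the vacuoles of intracellular pathogens, and some, such as USP18, dampen the receptor. Fibroblasts are a classical source of interferon beta and respond to it strongly.

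Promoters were looked up for the 33 genes in RefSeq (GRCm38.p6), from 250 bases before to 50 after each start site, and 25 genes had at least 1. No promoter was listed for Mx1, Mx2, Usp18, Parp9, Parp14, Iigp1, Rtp4 and Tor3a. These 25 genes had 33 promoters in all. The ISRE letters, GAAA and again GAAA with any 2 bases between the copies, searched on both strands, were present in 11 of the 33 promoters (33.3%), against 3.44% of the 32851 promoters in the table. They belonged to Stat2, Ifit1, Ifit3, Rsad2, Bst2, Trim21, Trim30a, Irgm1, Gbp3 and Gbp7. The GAS letters TTCNNNGAA, which read the same on both strands, were present in 6 (18.2%), those of Irf1, Ifit2, Isg20, Bst2, Gbp7 and Ifi35, against 8.3% of all promoters. A match describes letters only, and no binding was measured. The windows of 7 genes whose levels are given array by array below are shown with 15 bases on each side, 5′ to 3′ on the strand of the gene, with the ISRE letters (or their reverse complement) in capitals.
Stat2, chr10:128270261-128270300 (+ strand): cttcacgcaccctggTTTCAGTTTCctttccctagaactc
Ifit1, chr19:34640770-34640828 (+ strand): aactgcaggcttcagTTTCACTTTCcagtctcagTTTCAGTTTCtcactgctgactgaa
Ifit3, chr19:34583358-34583431 (+ strand): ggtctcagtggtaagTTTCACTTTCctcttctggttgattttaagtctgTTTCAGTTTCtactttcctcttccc
Rsad2, chr12:26456548-26456587 (- strand): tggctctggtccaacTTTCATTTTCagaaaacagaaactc
Bst2, chr8:71537572-71537617 (- strand): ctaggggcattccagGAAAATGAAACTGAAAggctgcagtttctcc
Trim30a, chr7:104465205-104465244 (- strand): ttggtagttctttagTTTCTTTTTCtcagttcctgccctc
Gbp3, chr3:142559984-142560029 (+ strand): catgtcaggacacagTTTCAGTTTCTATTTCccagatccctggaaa
In Bst2 and Gbp3 2 matches overlapped, and in Ifit1 and Ifit3 2 separate matches had other bases between them. All 7 windows lay before the start site.

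Expression levels are log2 values normalized by robust multi-array averaging (RMA), in which 1 unit is a 2-fold difference. Genes that exceeded the 40th percentile of an array on 2 or more arrays were tested, which left 15272 genes and all 33 interferon-stimulated genes. Of these 33, 26 were over that percentile on every array, and Samd9l (13 of 20 arrays), Iigp1 (14) and Mx2 (15) were so on the fewest. Markers of cell types were compared between the iMEF and MEF arrays, which does not test the genotype labels. The 10 fibroblast markers averaged 9.80 to 10.40 and 9.84 to 10.20 over the UBFfl/fl and UBFwt/wt iMEF arrays, against 12.12 to 12.46 and 12.06 to 12.26 over the UBFfl/fl and UBFwt/wt MEF arrays. Of these markers 7 were lower in iMEFs, with Dcn, the proteoglycan decorin, the lowest at -5.29. Summed linear levels of 19 macrophage markers were 1540 to 2500 and 1900 to 2720 in the UBFfl/fl and UBFwt/wt iMEFs, against 18800 to 30300 and 10400 to 17900 in the UBFfl/fl and UBFwt/wt MEFs. All 17 macrophage markers that were tested were lower in iMEFs, by a median of -2.95. Macrophages express interferon-stimulated genes too, and in these bulk samples fewer cells of a type and less RNA per cell cannot be told apart.

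On average over the genes and times, interferon-stimulated genes were higher at 48, 72 and 96 h pHT than at 0 and 24 h pHT in both cell types and in both genotypes. In iMEFs 30 of the 33 rose and 0 fell, where 3.76% of all genes tested rose and 6.49% fell (limma with Benjamini-Hochberg adjustment over all genes, adjusted p under 0.05). In MEFs 31 rose and 0 fell, where 7.48% of all genes rose and 9.3% fell. The median difference of the 33 genes was 0.95 in iMEFs, a 1.93-fold increase, and 1.09 in MEFs, a 2.13-fold increase, while the median of all genes was 0.00 in each. Within each of the 4 lines the difference was positive for 33 of the 33 genes, whereas 10.4% of all genes were positive in all 4 lines. The 3 genes that did not pass in iMEFs were Samd9l (0.39 ± 0.24), Parp9 (0.46 ± 0.21) and Trim25 (0.28 ± 0.10, SE), and in MEFs these were Irf1 (0.19 ± 0.14) and Trim25 (0.23 ± 0.10). Among all 4 lines taken as blocks, so that the error includes differences between lines in their course, 29 rose (4.83% of all genes) by a median of 1.0. With the 72 h arrays left out 17 genes passed in iMEFs, and with only the UBFfl/fl or only the UBFwt/wt lines in the fit 0 and 17 passed, with medians of 0.88 and 1.11.

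**Figure D1:**
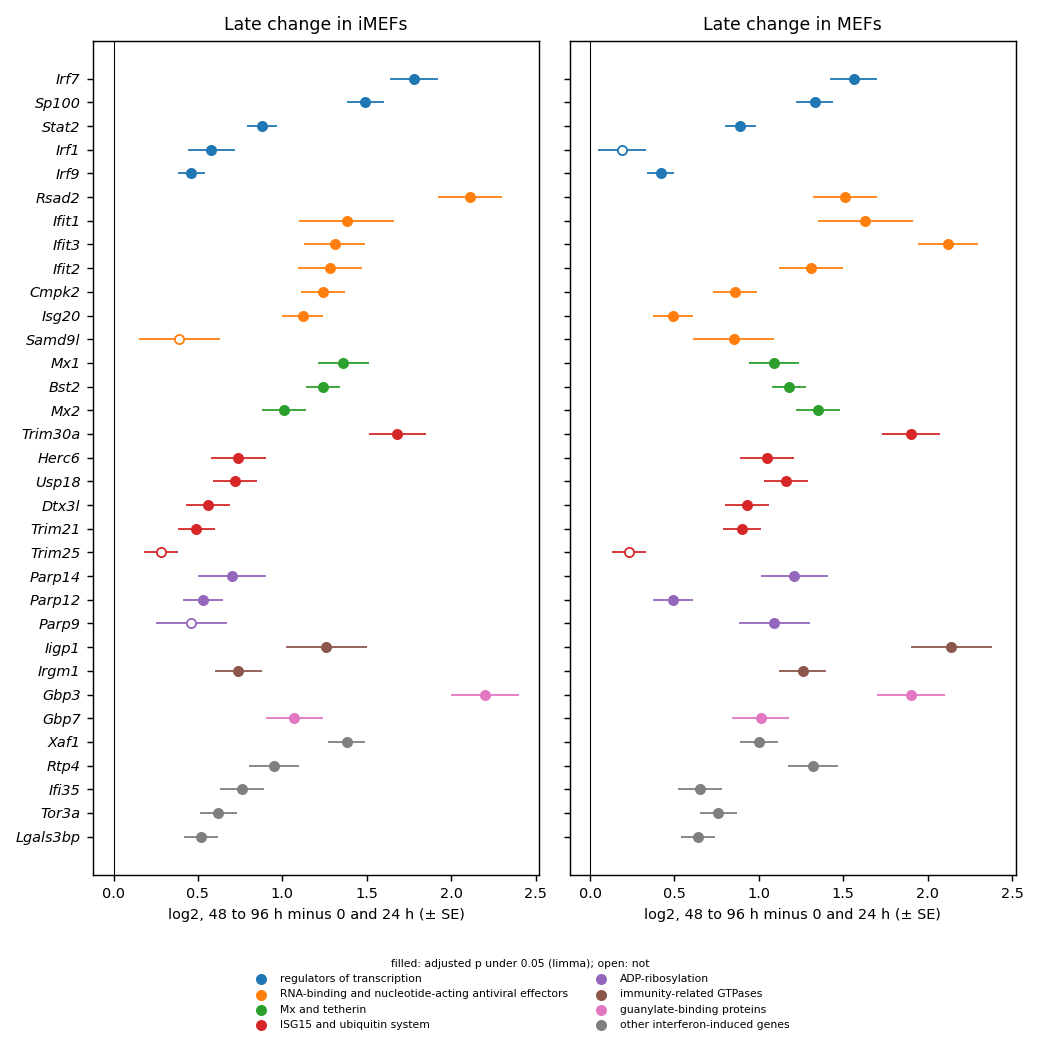
Difference between the mean of 48 to 96 h pHT and the mean of 0 and 24 h pHT (log2, with SE from limma) for the 33 genes, grouped by role, in iMEFs (left) and MEFs (right), averaged over both genotypes. Colours mark the role classes and filled points an adjusted p under 0.05. Every point lies above 0, from 0.28 (Trim25) to 2.20 (Gbp3) in iMEFs and from 0.19 (Irf1) to 2.14 (Iigp1) in MEFs.

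Of the 5 regulators of transcription 5 rose in iMEFs and 4 in MEFs, with medians of 0.88 and 0.89. Irf7, which drives interferon genes once induced, had the highest increase of this class in both cell types. In iMEFs its levels at 0, 24, 48, 72 and 96 h pHT were 9.96, 10.45, 12.72, 12.99 and 12.13 in the UBFfl/fl line and 11.36, 11.63, 12.71, 12.74 and 12.52 in the UBFwt/wt line. In MEFs Irf7 was at 10.11, 9.90, 11.24, 11.34 and 11.43 in the UBFfl/fl line and 9.06, 9.39, 11.34, 11.00 and 10.68 in the UBFwt/wt line. In each line all 3 later arrays were above both early ones. Irf7 rose 3.44-fold in iMEFs (1.78 ± 0.14, adjusted p = 7.15e-05) and 2.94-fold in MEFs (1.56 ± 0.14, adjusted p = 2.48e-05).

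Stat2 and Irf9 encode partners in the complex that binds the ISRE, and the promoter of Stat2 itself holds the ISRE letters shown above. Stat2 in iMEFs was at 9.68, 10.16, 11.73, 11.29 and 9.92 in the UBFfl/fl line and 10.36, 10.66, 11.86, 11.40 and 10.34 in the UBFwt/wt line. In MEFs it was at 10.83, 10.57, 11.41, 11.44 and 11.35 in the UBFfl/fl line and 10.34, 10.42, 11.60, 11.55 and 11.26 in the UBFwt/wt line. The iMEF values at 96 h were back within the range of the early arrays, or under it in the UBFwt/wt line, whereas the later MEF arrays were all above the early ones. Stat2 increased by 0.88 ± 0.09 in iMEFs and 0.89 ± 0.09 in MEFs, with adjusted p of 0.000494 and 6.26e-05 in limma. Irf9 moved less. Its levels were 10.54, 10.75, 11.49, 11.48 and 10.84 in the UBFfl/fl line and 10.80, 10.96, 11.37, 11.30 and 10.88 in the UBFwt/wt line in iMEFs. They were 10.62, 10.49, 10.82, 10.78 and 10.90 in the UBFfl/fl line and 10.16, 10.27, 10.91, 10.76 and 10.66 in the UBFwt/wt line in MEFs. The differences of 0.46 ± 0.08 (adjusted p = 0.00763) and 0.42 ± 0.08 (adjusted p = 0.00559) passed the test in iMEFs and in MEFs.

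Irf1, a transcription factor of the interferon gamma response whose promoter holds the GAS letters, differed least in MEFs. In iMEFs it was at 9.80, 10.21, 11.35, 10.71 and 9.53 in the UBFfl/fl line and 9.77, 9.88, 10.71, 10.58 and 10.11 in the UBFwt/wt line. In MEFs its levels were 9.48, 9.56, 9.90, 9.66 and 9.71 in the UBFfl/fl line and 9.57, 9.58, 9.92, 9.65 and 9.59 in the UBFwt/wt line, all between 9.48 and 9.92. It rose by 0.58 ± 0.14 in iMEFs (adjusted p = 0.0275) and differed by 0.19 ± 0.14 in MEFs (adjusted p = 0.447). The difference between the cell types in this increase, 0.39, did not pass the test. Sp100, a protein of PML nuclear bodies, was at 6.04, 6.70, 9.04, 8.23 and 7.28 in the UBFfl/fl line and 7.78, 8.33, 10.17, 9.38 and 8.07 in the UBFwt/wt line in iMEFs. In MEFs Sp100 was at 8.75, 8.26, 9.59, 9.63 and 9.15 in the UBFfl/fl line and 7.19, 7.47, 9.22, 9.17 and 8.69 in the UBFwt/wt line. Its increases of 1.49 ± 0.11 and 1.33 ± 0.11 (adjusted p = 5.28e-05 and 1.61e-05 in limma) were superimposed on lower levels of the UBFfl/fl line at every time in iMEFs and higher levels of the UBFfl/fl line at every time in MEFs.

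Genes that act on viral RNA and nucleotides showed the highest median increase among the role classes with over 3 genes. In iMEFs 6 of 7 rose by a median of 1.28 over the class, and in MEFs 7 of 7 by 1.31. Rsad2, which encodes viperin, an enzyme that makes a chain-terminating nucleotide, increased 4.32-fold in iMEFs (2.11 ± 0.19, adjusted p = 0.000225). Its iMEF levels were 6.51, 7.82, 10.74, 10.28 and 7.60 in the UBFfl/fl line and 7.81, 9.00, 11.19, 10.39 and 9.18 in the UBFwt/wt line. In MEFs they were 8.16, 8.42, 10.26, 9.39 and 8.21 in the UBFfl/fl line and 6.71, 7.56, 9.69, 9.37 and 8.40 in the UBFwt/wt line. The 48 h array was the highest of each line. The 96 h arrays of the UBFfl/fl lines, 7.60 in iMEFs and 8.21 in MEFs, lay between the 0 and 24 h arrays of those lines. Cmpk2, a nucleotide kinase gene that neighbours Rsad2, rose by 1.24 ± 0.13 in iMEFs and by 0.86 ± 0.13 in MEFs.

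The Ifit genes encode proteins that bind viral RNA and block its translation. Ifit3 rose in iMEFs (1.31 ± 0.18, adjusted p = 0.00179) and had the second largest increase in MEFs (2.12 ± 0.18, 4.33-fold, adjusted p = 1.63e-05). Its levels in iMEFs were 7.77, 9.92, 11.66, 10.52 and 8.79 in the UBFfl/fl line and 8.76, 9.88, 11.95, 10.63 and 8.82 in the UBFwt/wt line. In MEFs Ifit3 was at 10.69, 10.65, 12.54, 12.25 and 11.65 in the UBFfl/fl line and 9.04, 10.06, 12.40, 12.31 and 12.21 in the UBFwt/wt line. In iMEFs both 96 h arrays were below both 24 h arrays, while in MEFs every later array was above every early one of its line. Ifit1, whose promoter like that of Ifit3 holds 2 ISRE matches, was at 6.79, 9.01, 9.39, 8.99 and 8.27 in the UBFfl/fl line and 6.96, 7.86, 9.83, 9.05 and 8.69 in the UBFwt/wt line in iMEFs. The MEF levels of Ifit1 were 9.99, 9.68, 11.34, 10.99 and 9.52 in the UBFfl/fl line and 7.87, 9.31, 10.91, 11.50 and 10.79 in the UBFwt/wt line. In the UBFfl/fl iMEFs Ifit1 was already at 9.01 at 24 h, and in the UBFfl/fl MEFs it was lower at 96 h (9.52) than at 0 h (9.99). It rose by 1.38 ± 0.28 in iMEFs and 1.63 ± 0.28 in MEFs. Ifit2 rose by 1.28 ± 0.19 and 1.31 ± 0.19. Ifit3 has a close copy, Ifit3b, on a probe set of its own, and how far the arrays keep such copies apart was not tested.

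Isg20, an exonuclease that degrades single-stranded RNA, was the only gene of the 33 for which the late change passed the test of a difference between the cell types. In iMEFs Isg20 was at 9.22, 9.52, 11.30, 10.65 and 9.54 in the UBFfl/fl line and 9.54, 9.72, 11.27, 10.75 and 10.20 in the UBFwt/wt line. In MEFs it was at 9.14, 8.92, 9.81, 9.12 and 8.85 in the UBFfl/fl line and 8.70, 8.88, 9.84, 9.59 and 9.22 in the UBFwt/wt line. It rose by 1.12 ± 0.12 in iMEFs (2.17-fold) and by 0.49 ± 0.12 in MEFs (1.41-fold), a difference of 0.63 ± 0.17 (adjusted p = 0.0461). Of all genes 3.73% passed with a higher change in iMEFs and 3.59% with a lower one, 7.31% in all. In the UBFfl/fl MEFs the 72 and 96 h arrays were not above the 0 h array. The call depended on single arrays. The count was 0 without the 24, 48 or 72 h array of the UBFfl/fl iMEFs, without the 0, 72 or 96 h array of the UBFwt/wt iMEFs, without the 24 or 72 h array of the UBFfl/fl MEFs, or without the 0 or 72 h array of the UBFwt/wt MEFs. Without the 96 h array of the UBFfl/fl lines in iMEFs or in MEFs 4 passed, and without the 0 h array of the UBFfl/fl MEFs or the 24 h array of the UBFwt/wt MEFs 2 passed. Samd9l, a gene that restricts viral protein synthesis, was at 5.26, 6.51, 6.69, 6.12 and 5.06 in the UBFfl/fl line and 5.25, 5.96, 7.05, 5.72 and 6.12 in the UBFwt/wt line in iMEFs. In MEFs Samd9l was at 7.71, 7.71, 8.76, 8.55 and 7.00 in the UBFfl/fl line and 6.47, 7.16, 7.91, 8.77 and 7.70 in the UBFwt/wt line. Samd9l differed by 0.39 ± 0.24 in iMEFs (adjusted p = 0.367), where the 24 h array was the second highest of the UBFfl/fl line, and rose by 0.85 ± 0.24 in MEFs (adjusted p = 0.0317).

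Mx1, Mx2 and Bst2 rose in both cell types. Bst2 encodes tetherin, which holds budding virions at the cell surface. Its levels in iMEFs were 9.76, 10.14, 11.87, 12.12 and 11.18 in the UBFfl/fl line and 11.56, 11.67, 12.48, 12.38 and 12.13 in the UBFwt/wt line. In MEFs Bst2 was at 9.66, 9.38, 10.56, 10.61 and 10.46 in the UBFfl/fl line and 10.37, 10.29, 11.70, 11.66 and 11.60 in the UBFwt/wt line. The 3 later arrays were above both early ones in each line, and the UBFfl/fl line was below the UBFwt/wt line at each of the 5 times in both cell types. Bst2 rose 2.37-fold in iMEFs (1.24 ± 0.10, adjusted p = 0.000112) and 2.26-fold in MEFs (1.18 ± 0.10, adjusted p = 2.29e-05). The dynamin-like GTPases Mx1 and Mx2 rose by 1.36 ± 0.15 and 1.01 ± 0.13 in iMEFs and by 1.09 ± 0.15 and 1.35 ± 0.13 in MEFs.

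Of 6 genes of the ISG15 and ubiquitin system, 5 rose in iMEFs and 5 in MEFs. Trim30a, a mouse TRIM-family gene with an ISRE match shortly before its start site, changed most. In iMEFs Trim30a was at 6.59, 7.55, 10.16, 9.29 and 8.54 in the UBFfl/fl line and 8.20, 9.26, 10.85, 9.73 and 8.93 in the UBFwt/wt line. In MEFs it was at 10.07, 9.63, 11.29, 11.46 and 10.52 in the UBFfl/fl line and 7.19, 8.32, 10.40, 10.67 and 9.86 in the UBFwt/wt line. It rose by 1.68 ± 0.17 (3.21-fold, adjusted p = 0.00051) in iMEFs and 1.90 ± 0.17 (3.73-fold, adjusted p = 3.26e-05) in MEFs. Usp18, the protease that removes ISG15 and damps the interferon receptor, rose by 0.72 ± 0.13 in iMEFs and 1.16 ± 0.13 in MEFs. Herc6, an ISG15 ligase in mouse, rose by 0.74 ± 0.16 and 1.05 ± 0.16. Dtx3l and Trim21, ubiquitin ligases, rose by 0.56 ± 0.13 and 0.49 ± 0.11 in iMEFs and by 0.93 ± 0.13 and 0.90 ± 0.11 in MEFs. Dtx3l in iMEFs rested on 48 h, and without those arrays it differed by -0.01. Trim25, a ligase in the RIG-I pathway, was the exception in both cell types.

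Of the ADP-ribosyltransferase genes Parp9, Parp12 and Parp14, 2 rose in iMEFs and 3 in MEFs. Parp14 rose by 0.70 ± 0.20 in iMEFs (adjusted p = 0.048) and 1.21 ± 0.20 in MEFs, and Parp12 by 0.53 ± 0.12 and 0.49 ± 0.12. Parp9, which works as a partner of DTX3L, differed by 0.46 ± 0.21 in iMEFs (adjusted p = 0.21) and rose by 1.09 ± 0.21 in MEFs.

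GTPases that act on pathogen vacuoles included the largest increase of each cell type. Gbp3, a guanylate-binding protein gene, rose 4.59-fold in iMEFs (2.20 ± 0.20, adjusted p = 0.000216) and 3.73-fold in MEFs (1.90 ± 0.20, adjusted p = 7.86e-05), and over all 4 lines by 2.05. Its iMEF levels were 6.10, 6.72, 9.02, 9.32 and 8.69 in the UBFfl/fl line and 6.78, 7.28, 9.10, 8.80 and 8.56 in the UBFwt/wt line. In MEFs Gbp3 was at 7.59, 7.24, 9.37, 9.12 and 7.82 in the UBFfl/fl line and 6.06, 6.94, 8.94, 9.22 and 8.68 in the UBFwt/wt line. In iMEFs it stayed high at 96 h in both lines, while in the UBFfl/fl MEFs it was at 7.82 at 96 h against 7.59 at 0 h. Iigp1, an immunity-related GTPase gene, rose 2.40-fold in iMEFs (1.26 ± 0.24, adjusted p = 0.00918) and 4.41-fold in MEFs (2.14 ± 0.24, adjusted p = 0.000119). It was at 5.12, 6.18, 7.52, 6.89 and 6.35 in the UBFfl/fl line and 5.12, 6.37, 7.75, 6.51 and 6.72 in the UBFwt/wt line in iMEFs. Its levels in MEFs were 7.50, 7.29, 9.65, 9.57 and 7.61 in the UBFfl/fl line and 5.86, 7.00, 9.04, 9.77 and 8.69 in the UBFwt/wt line. At 0 h the iMEF values of Iigp1 and its value in the UBFwt/wt MEFs (5.86) lay under the 40th percentile of the arrays, which ranged from 6.16 to 6.42. The 0 h values of Gbp3 in the UBFfl/fl iMEFs (6.10) and the UBFwt/wt MEFs (6.06) did so too. Irgm1, another member of that family, rose by 0.74 ± 0.14 in iMEFs and 1.26 ± 0.14 in MEFs, and Gbp7 by 1.07 ± 0.17 and 1.01 ± 0.17.

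The other 5 genes all rose in both cell types. Xaf1, which encodes a factor that binds the apoptosis inhibitor XIAP, had the highest increase of them in iMEFs (1.38 ± 0.11), and Rtp4, a chaperone of receptor transport, in MEFs (1.32 ± 0.15). Lgals3bp, a secreted glycoprotein, had the smallest of them, 0.52 in iMEFs and 0.64 in MEFs. Ifi35 rose by 0.76 ± 0.13 in iMEFs and 0.65 ± 0.13 in MEFs, and Tor3a, a torsin ATPase gene, by 0.62 and 0.76.

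The increase was a wave that was highest at 48 h pHT in most genes. In the UBFfl/fl iMEFs the median level relative to 0 h was 0.76, 2.19, 1.66 and 0.32 at 24, 48, 72 and 96 h. In the UBFwt/wt iMEFs it was 0.33, 1.56, 0.92 and 0.20. In the UBFfl/fl MEFs it was -0.13, 0.96, 0.78 and 0.19, and in the UBFwt/wt MEFs 0.52, 1.78, 1.98 and 1.34. At 96 h the UBFwt/wt MEFs were thus the line furthest above its own 0 h array, with all 33 genes above it. The counts were 27 and 23 of 33 in the UBFfl/fl and UBFwt/wt iMEFs and 19 in the UBFfl/fl MEFs. The UBFwt/wt MEFs had started lower than the UBFfl/fl MEFs, with median levels of 8.39 and 9.59 at 0 h. At 96 h these medians were 9.84 and 9.71. Of the 33 genes, 30 and 32 were highest at 48 h in the UBFfl/fl and UBFwt/wt iMEFs, and 25 and 20 in the UBFfl/fl and UBFwt/wt MEFs. In the UBFwt/wt MEFs the other 13 were highest at 72 h. 15 genes were highest at 48 h in all 4 lines. The median of all genes at 48 h lay between -0.03 and 0.02 of that at 0 h. Both the 48 and the 72 h array were above both early arrays for 28 and 31 of 33 genes in the UBFfl/fl and UBFwt/wt iMEFs (21.6% and 26.9% of all genes) and for 31 and 33 in the UBFfl/fl and UBFwt/wt MEFs (32.7% and 19.9%). With the 96 h array required as well, the counts were 13 and 12 in the UBFfl/fl and UBFwt/wt iMEFs (13.6% and 15.7% of all genes) and 18 and 33 in the UBFfl/fl and UBFwt/wt MEFs (20.2% and 17.1%).

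**Figure D2:**
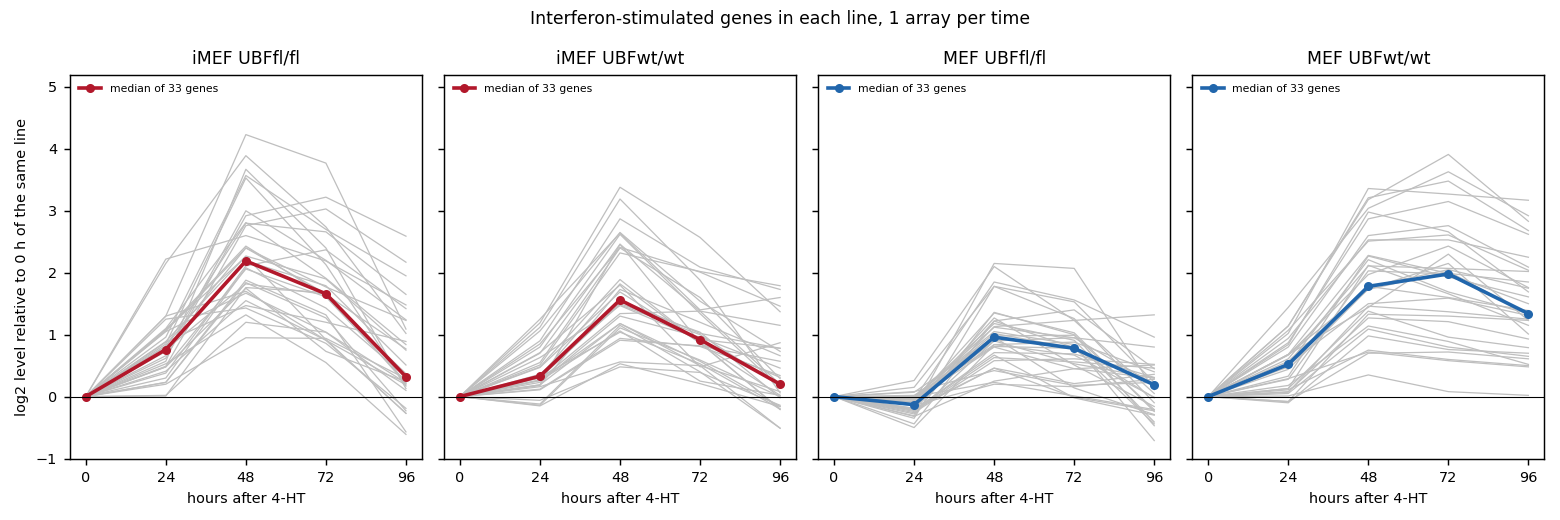
Level of each of the 33 genes relative to the 0 h array of its own line (log2, grey lines) against hours after 4-HT, with their median (coloured), in the 4 lines with 1 array per time. The median is highest at 48 h in 3 lines, at 2.19, 1.56 and 0.96, and at 72 h in the UBFwt/wt MEFs, at 1.98.

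Steps of the wave were compared over the 4 lines as blocks. Between 24 and 0 h limma called 0 of 33 genes (0% of all genes), with a median of 0.41, 31 positive values and 7 at an unadjusted p under 0.05, against 6792 positive and 396 at such a p among all 15272 genes. The highest was Ifit1 at 1.06. At 48 h against 0 h 28 genes were higher and 0 lower, where 127 of 15272 genes (0.832%) were higher and 0.0524% lower. The median was 1.70, a 3.24-fold increase. Rsad2 was 9.0-fold higher (3.17, adjusted p = 8.35e-05), Ifit3 8.42-fold (3.07, adjusted p = 0.00134), Trim30a 6.34-fold (2.66) and Iigp1 6.03-fold (2.59). The 5 genes that did not pass were Irf1, Samd9l, Trim25, Ifi35 and Lgals3bp, with adjusted p from 0.0517 to 0.0968. With only the UBFfl/fl or only the UBFwt/wt lines 0 and 7 genes passed, at medians of 1.54 and 1.78.

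At 96 h against 48 h the difference was negative for all 33 genes, with a median of -1.07. It passed for 6, Mx1 (-2.15, adjusted p = 0.0246), Rsad2 (-2.12), Cmpk2 (-1.99), Gbp7 (-1.46), Tor3a (-1.13) and Isg20 (-1.10), where 13 genes (0.0851%) were lower and 0.0131% higher over the whole table. Irf7 and Bst2 differed least, at -0.31 each. Mx1 in iMEFs was at 6.32, 6.89, 9.99, 8.72 and 6.45 in the UBFfl/fl line and 6.60, 6.79, 9.06, 7.46 and 6.39 in the UBFwt/wt line at 0, 24, 48, 72 and 96 h. In MEFs Mx1 was at 6.68, 6.55, 7.95, 7.19 and 6.52 in the UBFfl/fl line and 6.18, 6.31, 8.30, 7.85 and 7.33 in the UBFwt/wt line. Both iMEF lines and the UBFfl/fl MEFs were back at 96 h to within the range of their early arrays or under it, whereas the UBFwt/wt MEFs were above theirs. The comparisons of single times were added after the courses had been seen. This count depended on single arrays. Without the 48 or 96 h array of either iMEF line 0 genes passed, without the 96 h array of the UBFfl/fl MEFs 10, without the 96 h array of the UBFwt/wt MEFs 21, and without the 0 or 72 h array of the UBFwt/wt MEFs 3.

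In iMEFs the UBFfl/fl line started from lower levels of part of these genes. Over 0 and 24 h, 10 of the 33 genes were lower in the UBFfl/fl than in the UBFwt/wt line and 0 higher, where 4.45% of all genes were lower and 9.89% higher. The median difference was -0.49, against -0.02 for all genes. Sp100 differed most (-1.69 ± 0.17, adjusted p = 0.000376), followed by Bst2 (-1.67 ± 0.16, adjusted p = 0.000292) and Trim30a (-1.66 ± 0.27, adjusted p = 0.00634). At 0 h these were at 6.04, 9.76 and 6.59 in UBFfl/fl iMEFs, against 7.78, 11.56 and 8.20 in UBFwt/wt iMEFs. Irf7 (-1.29), Rsad2 (-1.24), Xaf1 (-1.13), Usp18 (-0.92), Ifi35 (-0.86), Lgals3bp (-0.75) and Stat2 (-0.59) were the others. Ifit1 (0.49 ± 0.44) and Ifit2 (0.35 ± 0.29) had positive differences that did not pass. 4 genes passed with the 24 h arrays left out. Without the 24 h array of either iMEF line 3 passed, and without the 0 h array of either 6 passed, 1 of which was higher.

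In MEFs the differences ran the other way for most genes, though few passed. The UBFfl/fl line was higher at 0 and 24 h for Trim30a (2.10 ± 0.27, 4.27-fold, adjusted p = 0.0141) and Sp100 (1.18 ± 0.17, 2.26-fold, adjusted p = 0.022), where 0.183% of all genes were higher and 0.34% differed in either direction. Differences were positive for 31 of 33 genes, with a median of 0.76 against -0.04 for all genes. The exceptions were Bst2 (-0.81 ± 0.16, adjusted p = 0.0662) and Irf1 (-0.05 ± 0.22). Usp18 (1.02 ± 0.19) and Rtp4 (1.20 ± 0.23) had adjusted p of 0.0612 and 0.0589. The macrophage markers summed to 23100 and 19300 at 0 and 24 h in the UBFfl/fl MEFs, against 17900 and 16700 in the UBFwt/wt MEFs, with a median difference of 0.24 over the tested 17 and 0 called. Their part in the result was not tested. No gene passed without the 0 h array of either MEF line or with MEFs fitted alone, 1 passed without the 48 h array of either iMEF line, 4 without the 96 h array of either iMEF line and 6 without the 96 h array of either MEF line.

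The genotype difference itself differed between the cell types for 10 of the 33 genes, all with a lower value in iMEFs, where 0.76% of all genes did so (limma). The contrast was largest for Trim30a (-3.76 ± 0.38, adjusted p = 0.00134) and Sp100 (-2.86 ± 0.24, adjusted p = 0.000467), and its median was -1.05. Rsad2, Irf7, Usp18, Rtp4, Cmpk2, Irgm1, Xaf1 and Lgals3bp also passed, from -2.40 (Rsad2) to -1.05 (Lgals3bp). This comparison was added after the values of each cell type had been seen. The count was 2 without the 0 h array of any line, 4 without the 24 h array of either iMEF line, 6 without the 72 h array of any line or the 24 h array of either MEF line, and 16 without the 96 h array of either MEF line. With 1 line per genotype and cell type, genotype cannot be told apart from other differences between the lines. The early difference also includes the 24 h arrays, so it does not describe the lines at 0 h alone.

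**Figure D3:**
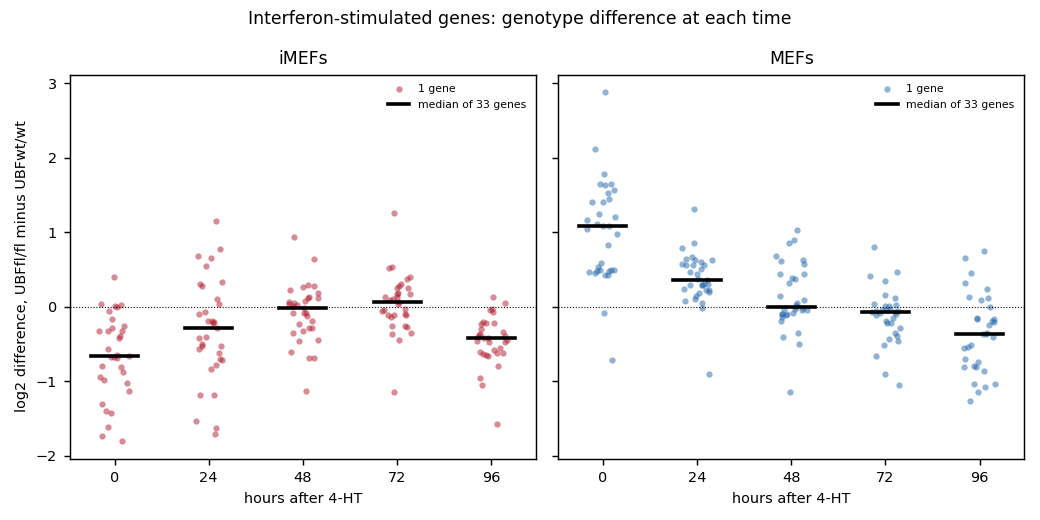
Difference of the UBFfl/fl from the UBFwt/wt line (log2) at each time after 4-HT for the 33 genes (points, spread sideways at random) with their median (bar), in iMEFs and MEFs. The medians at 0 h are -0.67 in iMEFs and 1.08 in MEFs, and at 48 h -0.01 and 0.00.

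By time, the median genotype difference in iMEFs was -0.67, -0.28, -0.01, 0.06 and -0.42 at 0, 24, 48, 72 and 96 h. In MEFs it was 1.08, 0.36, 0.00, -0.07 and -0.37. Medians at 48 and 72 h were therefore within 0.07 of 0 in both cell types, from opposite sides at 0 h. At 96 h, with 1 array per line, the UBFfl/fl line was lower for 31 of 33 genes in iMEFs and for 25 in MEFs. Among all genes, 46.5% in iMEFs and 58.7% in MEFs were higher in the UBFfl/fl line at that time. Sp100 in iMEFs (-1.13 at 48 h) and Bst2 in MEFs (-1.14 at 48 h) were still lower in the UBFfl/fl line.

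Loss of UBF was addressed by the genotype difference at 48 to 96 h minus that at 0 and 24 h. The paper reports that excision was complete, and UBF protein already clearly lower, by the later of these early times. The early mean of the UBFfl/fl iMEFs therefore includes an array taken during the loss, and any effect present by then is partly subtracted. The paper's text gives no separate course of excision or UBF protein for primary MEFs, where the same may apply. The median level at 24 h relative to 0 h was 0.76 and 0.33 in the UBFfl/fl and UBFwt/wt iMEFs. In the UBFfl/fl and UBFwt/wt MEFs it was -0.13 and 0.52. In iMEFs limma called 0 of the 33 genes, where 0.183% of all genes were called higher and 0.0393% lower. The median was 0.38, 24 of the 33 genes were positive and 9 had an unadjusted p under 0.05, where 7080 of all 15272 genes were positive and 3370 had such a p. Irf7 (1.25 ± 0.28, adjusted p = 0.0675), Xaf1 (1.17 ± 0.21, adjusted p = 0.0583), Trim30a (1.15 ± 0.35, adjusted p = 0.106) and Bst2 (1.06 ± 0.21, adjusted p = 0.0585) had the highest values. All 4 started lower in the UBFfl/fl line. For Irf7 the later means were 12.61 in UBFfl/fl and 12.65 in UBFwt/wt iMEFs, against early means of 10.20 and 11.50. For Bst2 the later means were 11.73 in UBFfl/fl and 12.33 in UBFwt/wt iMEFs, against early means of 9.95 and 11.62. Without the 96 h array of either iMEF line 2 genes passed, without that of either MEF line 4, and with all 96 h arrays left out 11. Of the 16 sensors and Oas genes, which are not among the 33, 2 were called higher by this comparison in iMEFs and 0 in MEFs. Oas2 differed by 1.87 ± 0.30 in iMEFs with an adjusted p of 0.0366. For Zbp1 the value was 1.91 ± 0.26 with an adjusted p of 0.0297. Both genes also started lower in the UBFfl/fl iMEFs, with early genotype differences of -2.05 for Oas2 and -1.88 for Zbp1.

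In MEFs limma called 0 of the 33 genes and 0% of all genes. The median was -0.82, with 32 negative values and 21 of the 33 genes at an unadjusted p under 0.05, where 6233 of all 15272 genes were negative and 1052 had such a p. Ifit1 (-1.69 ± 0.57), Mx2 (-1.47 ± 0.25, adjusted p = 0.631), and Trim30a (-1.31 ± 0.35) had the lowest values. For Ifit1 the later means were 10.62 in UBFfl/fl and 11.07 in UBFwt/wt MEFs, against early means of 9.83 and 8.59. The 17 tested macrophage markers had a median of the opposite sign, 0.65 with 0 called. All 19 macrophage markers with a probe set summed to 30300 in UBFfl/fl against 10400 in UBFwt/wt MEFs at 96 h. Their part in the result was not tested. Without the 24 or the 48 h array of either MEF line 1 gene passed. The effect in iMEFs minus that in MEFs had a median of 1.20, was positive for 32 genes and gave 0 calls (0% of all genes), or 1 without the 24 h array of either MEF line. An unadjusted p under 0.05 was found for 22 of the 33 genes and for 1136 of all 15272, of which 5858 were positive.

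**Figure D4:**
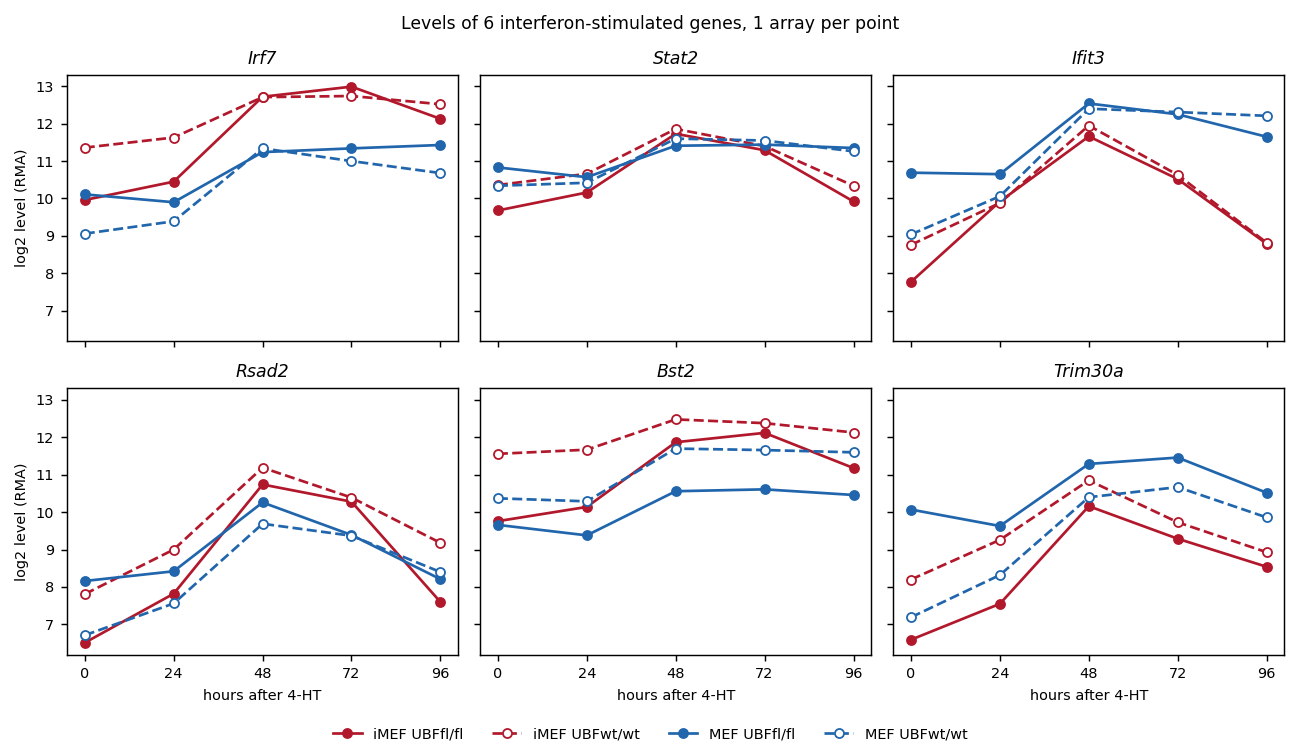
Level (log2, RMA) against hours after 4-HT for 6 genes in the 4 lines, with UBFfl/fl as filled and UBFwt/wt as open symbols, 1 array per point. Within each cell type Bst2 stays lower in the UBFfl/fl than in the UBFwt/wt line. Irf7 and Trim30a start lower in UBFfl/fl than in UBFwt/wt iMEFs and higher in UBFfl/fl than in UBFwt/wt MEFs.

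Early levels also differed between immortalized and primary cells in both directions. Over 0 and 24 h, 7 of the 33 genes were higher in iMEFs and 14 lower, where 36% and 32% of all genes were, so that 21 of the 33 genes passed in a comparison in which 68% of all genes did. Irf7 had the highest difference (1.23 ± 0.15, 2.35-fold, adjusted p = 6.71e-05), followed by Ifi35 (0.99 ± 0.14), Bst2 (0.86 ± 0.11), Usp18 (0.65 ± 0.14), Isg20 (0.59 ± 0.13), Rtp4 (0.56 ± 0.16) and Irf9 (0.38 ± 0.09). Ifit1 (-1.56 ± 0.31, adjusted p = 0.0014), Samd9l (-1.52 ± 0.26, adjusted p = 0.000536), Iigp1 (-1.22 ± 0.26), Parp9 (-1.21 ± 0.23) and Ifit3 (-1.03 ± 0.19) were the lowest. For Ifit1 the iMEF array was below the MEF array of the same genotype at each time. These differences are averages over genotypes that did not always agree, and their errors leave out how far the lines of a cell type differ. The early means of Irf7 in iMEFs and MEFs were 10.20 and 10.00 in UBFfl/fl, against 11.50 and 9.23 in UBFwt/wt. In UBFfl/fl, Usp18 (11.19 and 11.52) and Rtp4 (9.75 and 10.06) were lower in iMEFs. In UBFwt/wt both were higher in iMEFs (12.11 and 10.50, 10.30 and 8.86). The 17 tested macrophage markers were all lower in iMEFs, as given above, and their part in these differences was not tested.

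Other genes of the pathway were read from lists. The ligands gave no call with time. Of 15 interferon genes with a probe set, 7 were not tested, and 1 of these was Ifnb1 (mean level 5.52 over the 20 arrays), the classical fibroblast interferon. The 8 that were tested differed between -0.13 and 0.16 with time in iMEFs and between -0.03 and 0.12 in MEFs. Of 19 receptor and signalling genes, 2 rose and 1 fell in iMEFs and 2 rose in MEFs, where 10.2% of all genes were called in either direction in iMEFs and 16.8% in MEFs, so that these shares were near the background. Irf2, an antagonist of Irf1, rose in both (0.48 ± 0.09 and 0.44 ± 0.09), Irf5 rose in iMEFs (0.71 ± 0.10) and Ifngr2 in MEFs (0.33 ± 0.08), and Ifnar1 fell by 0.37 in iMEFs. Of 7 adaptors upstream of interferon, 0 passed in iMEFs, and Ikbke (0.62 ± 0.10) and Traf6 (0.41 ± 0.10), a kinase and a ubiquitin ligase of that signalling, rose in MEFs.

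Many nucleic acid sensors and 2′-5′ oligoadenylate synthetases are themselves interferon-induced. Of 16 tested, 12 rose in iMEFs and 13 in MEFs, with medians of 0.90 and 1.0, where 3.76% and 7.48% of all genes rose. Zbp1, a sensor of left-handed nucleic acids, rose by 2.27 ± 0.13 in iMEFs and 2.18 ± 0.13 in MEFs. Oas3 rose by 2.27 ± 0.15 in iMEFs and 0.82 ± 0.15 in MEFs, and its late change passed the test of a difference between cell types (1.45, adjusted p = 0.00242). Oas2 rose by 2.03 ± 0.15 and 1.55 ± 0.15. Of 10 genes of MHC class I presentation, 8 rose in iMEFs and 7 in MEFs, led by the immunoproteasome subunits Psmb8 (1.54 ± 0.13) and Psmb9 (1.45 ± 0.16) in iMEFs and by the peptide transporter Tap1 (1.10 ± 0.15) and Psmb8 (0.99 ± 0.13) in MEFs. Of the 17 macrophage markers, 1 rose in iMEFs (Cd68, 1.38), and 1 rose (Ctss, 0.55) and 1 fell (Csf1r, by 0.62) in MEFs, with medians of -0.04 and -0.07. Of the 10 fibroblast markers, 3 fell in iMEFs, Pdgfra by 0.77, Col1a1 by 0.31 and Thy1 by 0.30, and 2 rose in MEFs, Dcn (0.54) and Lum (0.76), with medians of -0.25 and 0.13. The part of either list in the late increase was not tested.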

How the data were processed

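RNA of 4 fibroblast lines at 5 times was hybridized to Affymetrix whole-transcript arrays, 1 array per line and time. The deposited log2 values were made by the authors with RMA in Affymetrix Power Tools 1.14.4 (submitters' processing notes) and were used as deposited. The methods name Mouse Gene 2.0 ST, while the annotation used here belongs to Mouse Gene 1.0 ST. There were 35556 probe sets, and it gave 21789 of them 1 symbol and 1621 several, with 12146 not listed. Probe sets of several symbols were left out, because their signal cannot be given to 1 gene. Symbols were looked up in RefSeq by gene identifier (21698 probe sets found, 0 symbols changed). Each gene was represented by its probe set of highest mean, giving 19938 genes, and 15272 passed the filter (over the 40th percentile of an array on at least 2 arrays). The filter ran on all arrays together. Array columns that were not used numbered 0.

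Differences were fitted with limma 3.58.1 in R 4.3.3 on all genes kept, with Benjamini-Hochberg adjustment over them and a threshold of 0.05. The model by cell type held line, time within cell type and genotype by late time within cell type (6 residual degrees of freedom, prior 4.78). The model over 4 lines held line and time (12, prior 4.55). Early means 0 and 24 h and late means 48, 72 and 96 h, as simple means of log2 values. As no culture was repeated, p-values measure the scatter that each model leaves. In the model by cell type this is how the UBFfl/fl minus UBFwt/wt difference varied from time to time, around its early and its late mean. Rises and falls that both lines of a cell type share, such as those from 48 to 96 h, are not part of it. In the model over 4 lines it is the departure of single lines from their common course. Arrays have no read depth, and their number limits the precision.

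Alternatives were no filter or a 60th percentile filter, quantile normalization, arrays shifted to a common median, averaging a gene's probe sets, trend and robust empirical Bayes, each cell type alone, and each array or the 24 h arrays left out. Leaving out 48, 72 or 96 h, fitting 1 genotype alone, and the comparisons of 24 with 0 h, 48 with 0 h, 96 with 48 h and of the early genotype difference between cell types were added after values had been seen. The members and lists were chosen with earlier results of these data known. Levels on all arrays are given for Irf1, Irf7, Irf9, Stat2 and the 2 genes of largest difference past the threshold per comparison. Other genes are named when past the threshold or highest or lowest of their role class, and up to 4 per further list and comparison. The scripts were tested on simulated data. Promoters and motifs were read with Python 3.11.15 from RefSeq (GRCm38.p6), and plots were drawn with matplotlib 3.10.9.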

Additional observations from a re-analysis of the deposited data

Results flagged for a closer look

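For 11 results a test of the difference between iMEFs and MEFs passed in limma. The late change of Isg20 was higher in iMEFs than in MEFs by 0.63 ± 0.17 (adjusted p = 0.0461). Isg20 was the only gene of the 33 to pass there, where 7.31% of all genes passed. With single arrays left out, 0 to 4 of the 33 genes passed. The other 10 concern the genotype difference, UBFfl/fl minus UBFwt/wt, at 0 and 24 h pHT, given as its value in iMEFs minus its value in MEFs. It was -2.07 ± 0.30 for Irf7 (adjusted p = 0.00889), -2.86 ± 0.24 for Sp100 (adjusted p = 0.000467), -2.40 ± 0.42 for Rsad2 (adjusted p = 0.0236) and -1.54 ± 0.29 for Cmpk2 (adjusted p = 0.0278). Among genes of the ubiquitin system it was -1.94 ± 0.28 for Usp18 (adjusted p = 0.00775) and -3.76 ± 0.38 for Trim30a (adjusted p = 0.00134). It was -1.48 ± 0.31 for the GTPase gene Irgm1 (adjusted p = 0.0496), -1.75 ± 0.32 for Rtp4 (adjusted p = 0.0276), -1.39 ± 0.23 for Xaf1 (adjusted p = 0.0206) and -1.05 ± 0.21 for Lgals3bp (adjusted p = 0.0368). In each of the 10 the value was negative in iMEFs and positive in MEFs. For Irf7 it was -1.29 in iMEFs and 0.78 in MEFs. For Irgm1 it was -0.72 in iMEFs and 0.76 in MEFs, and neither of these passed by itself.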

How the results depend on the processing

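The numbers of the 33 genes past the threshold were recomputed under each alternative. The late increase passed in iMEFs for 17 genes with the 72 h arrays left out, and over the 4 lines for 0 with the UBFfl/fl and 17 with the UBFwt/wt lines alone. The early genotype difference passed in iMEFs for 4 genes with the 24 h arrays left out. In MEFs it passed for 5 with quantile normalization, 5 with trend and robust empirical Bayes, 6 without the 96 h arrays, and 0 with MEFs alone or without the 72 h arrays. Its difference between cell types passed for 5, 4 and 16 genes without the 24, 72 and 96 h arrays. The late effect of genotype in iMEFs passed for 2 genes with arrays shifted to a common median, 3 with quantile normalization, 2 with trend and robust empirical Bayes and 11 without the 96 h arrays. The difference of the late change between cell types passed for 2 genes with a common median, 0 without the 24 or 72 h arrays, 6 without 48 h and 9 without 96 h. The comparison of 48 with 0 h passed for 0 genes with the UBFfl/fl and 7 with the UBFwt/wt lines alone. That of 96 with 48 h passed for 10 with a common median, 0 without 24 h, 3 without 72 h, and 0 with either genotype alone. Fits to 1 genotype or cell type have fewer arrays. For the other changes the cause was not tested.

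With single arrays left out in turn, the late increase passed for 20 to 30 genes in iMEFs, 25 to 31 in MEFs and 29 to 31 over the 4 lines. The early genotype difference passed for 3 to 14 in iMEFs and 0 to 6 in MEFs, and its difference between cell types for 2 to 16. The late effect of genotype passed for 0 to 4 in iMEFs, 0 to 1 in MEFs and 0 to 1 for their difference. The early difference of iMEFs from MEFs passed for 16 to 23, the difference in late change for 0 to 4, and 24 against 0 h for 0. The comparison of 48 with 0 h passed for 25 to 30, and that of 96 with 48 h for 0 to 21. Of 930 single-gene values of the late increase in iMEFs, 841 kept direction and side of the threshold, 88 lost the threshold, and 1 turned, Dtx3l without the 48 h arrays (-0.01). In MEFs 926 of 961 kept both and 35 lost the threshold. For the early genotype difference 278 of 310 kept both in iMEFs and 52 of 62 in MEFs, and for its difference between cell types 208 of 300. For 96 against 48 h 111 of 180 kept both, and for the difference of Isg20 in late change 12 of 30. Lines entered the fits as blocks and arrays were compared at matched times, but no replicate numbers pair them.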

Other observations

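Ifit3b, a close copy of Ifit3 that is not among the 33 genes and was picked after its value was seen, had the highest difference of all 15272 genes at 48 h against 0 h over the 4 lines (3.50). It also had the highest at 24 h against 0 h (1.16). At 96 h against 48 h Mx1 had the lowest difference of all genes (-2.15).

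Part of the genes of MHC class I presentation also differed by genotype in iMEFs. At 0 and 24 h 4 of the 10 were lower in the UBFfl/fl than in the UBFwt/wt line and 0 higher, with a median of -0.59 and the lowest value at Psmb8 (-1.80). Of all genes 4.45% were lower and 9.89% higher. In MEFs 0 of the 10 passed, with a median of 0.04, where 0.34% of all genes passed. Of the 16 sensors and Oas genes, 7 were lower in the UBFfl/fl iMEFs (4.45% of all genes), with Oas2 the lowest (-2.05). Oasl2 was the 1 that was higher in the UBFfl/fl MEFs (0.95), where 0.183% of all genes were.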
